A study of Mustela putorius furo and Mus musculus with 4 samples.

Results

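The genes described here make prostaglandins or receive their signal, and were read out in cultured ferret and mouse astrocytes. They are 10 genes chosen by symbol, of which 8 are among the 13373 symbols that the values of the 2 species share. The list holds 2 cyclooxygenase genes (Ptgs1 and Ptgs2), 5 genes of terminal synthases (Ptgds, Ptges, Ptges2, Ptges3 and Ptgis), the receptor genes Ptger2 and Ptger4, and Ptgfrn, which encodes a partner of a prostaglandin receptor. All 10 had a value in the mouse libraries. Ptgds and Ptges3 had no symbol match among the ferret values used here, and their ferret level was not analysed here. None of the 10 symbols had more than 1 value in a library.

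There were 2 libraries of ferret astrocytes and 2 of mouse astrocytes. The ferret cultures came from the cerebral cortex of sable ferrets at postnatal day 1, and the mouse cultures from that of wild-type ICR mice at postnatal day 1 to 3. Cells of 4 mouse pups were pooled in 1 flask, whereas the cells of a ferret pup were spread over 4 flasks. Mixed glia of both species were kept in medium with fetal bovine serum until day 14, when the flasks were shaken and the attached cells plated anew. RNA was taken on day 7 of this second culture, and the last 4 of these days, from day 3 on, were spent without serum. The serum-free medium held heparin-binding EGF-like growth factor, N-acetyl cysteine, progesterone, putrescine, selenite, transferrin and serum albumin in both species. Nothing in the sources used here says that the duplicates are separate cultures, so the p-values measure the spread between these libraries, which may be technical.

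Prostaglandins are short-range lipid signals. Phospholipases free arachidonic acid from membranes, the cyclooxygenases turn it into the common precursor PGH2, and terminal synthases turn the precursor into PGD2, PGE2 or prostacyclin. The products leave the cell and act on receptors of the G protein-coupled class, among which EP2 and EP4 raise cyclic AMP in response to PGE2. In the brain, cyclooxygenase 2 and the inducible PGE2 synthase encoded by Ptges are known for their induction in inflammation and fever, and cyclooxygenase 1 is known from microglia.

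Expression was given as FPKM, which divides the fragments of a gene by its exon length and by the mapped fragments of the library, so that levels of different genes are per length. Read counts of the study were not used here, and since FPKM alone do not give the depth of a library, low values carry no counting interval. The most common ratio between low FPKM values of duplicates was 0.85 for ferret replicate 1 over replicate 2 and 1.2 for mouse replicate 1 over replicate 2. Where both values rest on the same number of fragments, such a ratio is the inverse of the ratio of depths. Ferret minus mouse differences are on the log2(FPKM + 1) scale and understate the change of low genes. They were tested with limma over the 10204 shared genes with a mean of at least 1 FPKM in at least 1 species. To be called, a gene needed a limma p under 0.05 after Benjamini-Hochberg adjustment and a log2 difference of more than 1 in either direction. Species, genome annotation and culture cannot be told apart in this design. Over all tested genes the median of the log2 differences was -0.35, and a gene at that value stood where the middle gene stood. For a single gene, the smallest two-sided p that exact permutation of 2 against 2 libraries allows is 0.333.

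Among the prostaglandin genes, 4 were lower and 1 was higher in ferret astrocytes. Both cyclooxygenase genes, Ptges and Ptgis were lower, and Ptger4, the gene of the EP4 receptor, was higher. Ptges2 and Ptgfrn were tested and not called, and Ptger2 was under the limit for low values in both species, so that 7 of the 8 measured genes entered the test. Across all 10204 genes tested, 30.1% were called lower and 13.1% higher in ferret astrocytes. Ptgs1, Ptgs2 and Ptger4 passed the limit for low values only through the species in which they were high. Without that limit, the 8 genes had a median of -1.20 in log2, against -0.11 for all 13373 shared symbols. The ferret and mouse libraries did not overlap for any of the 8 genes, and neither did they for 86.1% of all 13373 shared symbols. Among the tested genes, both ferret libraries lay below both mouse libraries for 59.0% and above them for 35.1%, so that a lack of overlap is close to the rule here. The same 4 lower genes and 1 higher gene were called under each of the 11 alternative settings that were tried.

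**Figure D1:**
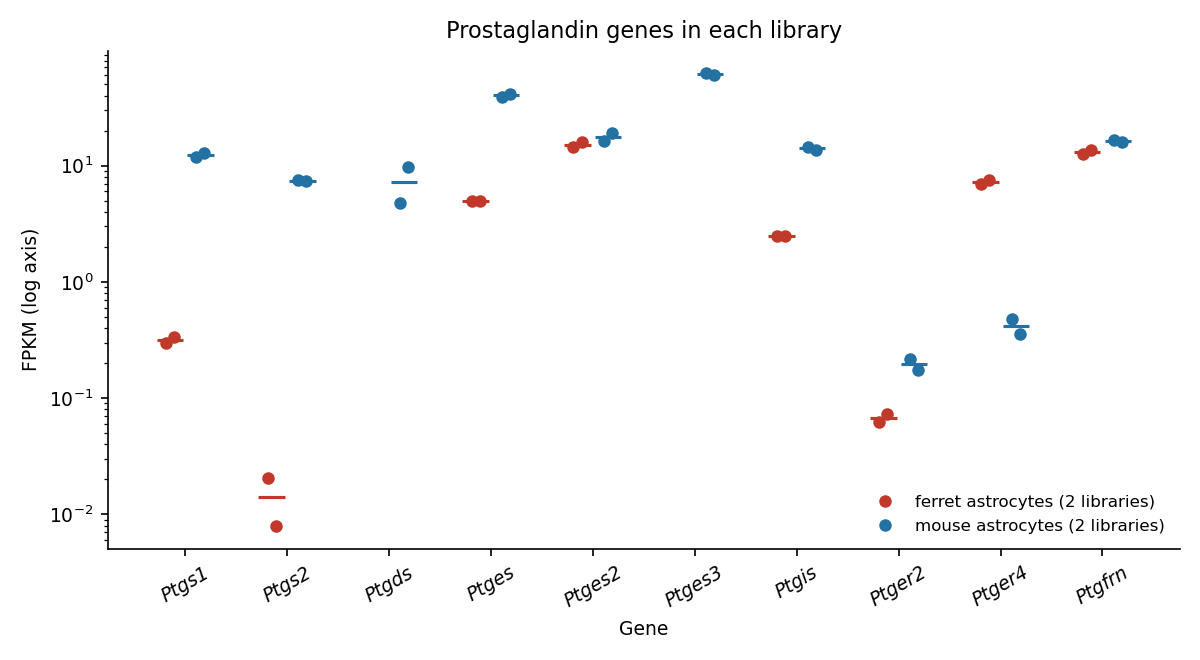
FPKM (log axis) of the 10 prostaglandin genes in each library, with 2 ferret libraries (red points) and 2 mouse libraries (blue points). Short lines are species means. The ferret points lie below the mouse points for Ptgs1, Ptgs2, Ptges and Ptgis and above them for Ptger4, and Ptgds and Ptges3 have mouse points only.

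Ptgs1 encodes cyclooxygenase 1, the constitutive enzyme of the first step. Its FPKM was 0.297 and 0.337 for the ferret duplicates, against 11.9 and 12.8 for those of the mouse. Both ferret libraries were far below both mouse libraries, and the mouse mean was 39.0 times the ferret mean. On the log2 scale Ptgs1 differed by -3.34 (standard error 0.0775, limma adjusted p = 1.86e-10). Ptgs1 stood at percentile 24.0 and 24.8 of the shared genes in the ferret duplicates against 63.4 and 64.8 in those of the mouse, a position that does not depend on the scaling between species. The mouse gene lies on the plus strand of chromosome 2 between 36230426 and 36252272 in GRCm38, with 11 exonic regions in GENCODE release M21.

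Ptgs2, the gene of the inducible cyclooxygenase 2, was at 0.0204 and 0.00795 FPKM in ferret astrocytes. Its mouse values were 7.52 and 7.36 FPKM. The gene was close to the lower end in the ferret, since 2.63% and 0.484% of the genes with a value above 0 were at or below it, while it lay near the middle of the genes in the mouse, with 48.3% and 47.6% at or below. A log2 difference of -3.06 was found (standard error 0.0750, limma adjusted p = 2.64e-10). With a pseudocount of 0.1 in place of 1 it was -6.05, so its size depends on the pseudocount. No ratio of means is given for this gene, because the ferret duplicates themselves differed 2.56-fold. Mouse Ptgs2 spans bases 150100031 to 150108227 of chromosome 1 on the plus strand of GRCm38, with 11 exonic regions. Its antisense genes Ptgs2os and Ptgs2os2 stood at 0.0639 ± 0.00104 and 0.0323 ± 0.0196 FPKM (SD, n = 2) in the mouse.

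The summed FPKM of both cyclooxygenase genes was 0.317 and 0.345 in ferret and 19.5 and 20.2 in mouse astrocytes. Ptgs1 made up 61.3% and 63.5% of this sum in the mouse libraries and 93.6% and 97.7% in the ferret libraries. Within a library the log2 ratio of Ptgs1 to Ptgs2 was 3.87 and 5.41 in the ferret and 0.67 and 0.80 in the mouse, a difference between species of 3.90 (exact two-sided permutation p = 0.333, the smallest possible here). Both ferret ratios were above both mouse ratios. The ferret ratios rest on Ptgs2 values near the lower end of the measured range, and after 1 FPKM was added to each value the difference between species was -0.29.

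Markers of other cell types moved with these differences. Of 18 microglial markers measured in both species, 17 were called lower in ferret astrocytes, beside 30.1% of all tested genes. Many of the 17 passed the limit for low values only through the mouse mean. The sums over the list were 78.6 and 78.1 FPKM in ferret and 1044.8 and 1023.3 in mouse astrocytes. Tyrobp had 148.8 and 142.3 FPKM in the mouse, against 0.868 and 0.509 FPKM in the ferret. Cx3cr1 is listed at 0 in both ferret libraries and Itgam and P2ry12 in 1 of them each, whereas Cx3cr1 had 15.0 and 16.5 FPKM and Itgam 7.66 and 7.39 FPKM in the mouse. Their part in the levels of Ptgs1 and Ptgs2 was not tested. In RNA of whole cultures, fewer cells of a type and less RNA per cell cannot be told apart. The paper counted cell types by immunostaining in cultures kept in serum, not in those used for RNA. Nearly all cells were astrocytes in both species, with a larger share of microglia in the mouse and a small share of neurons in the ferret only. Astrocyte markers were present in both species, with Gfap between 1428.6 and 1545.6 FPKM in the 4 libraries, and the glutamate transporter gene Slc1a2 was at 0.133 and 0.178 FPKM in the ferret, against 47.1 and 51.8 FPKM in the mouse.

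The terminal synthases split into genes that were lower in ferret astrocytes and a gene that was not called. Of the 3 with values in both species, Ptges and Ptgis were lower and Ptges2 was not called.

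Ptges encodes microsomal PGE synthase 1, the inducible enzyme of PGE2 synthesis. It had 5.01 and 4.98 FPKM in the ferret duplicates against 39.0 and 41.5 in those of the mouse. The duplicates lay close together in both species, and the mouse mean was 8.06 times the ferret mean. Ptges differed by -2.78 on the log2 scale (standard error 0.0656, limma adjusted p = 2.05e-10). Its position among the shared genes was percentile 51.1 and 50.5 in the ferret and 87.7 and 88.3 in the mouse. Mouse Ptges lies on the minus strand of chromosome 2 between 30889471 and 30929863, with 6 exonic regions.

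Ptges2 encodes microsomal PGE synthase 2, which is expressed widely. Its values were 14.5 and 15.9 FPKM in the ferret duplicates against 16.3 and 19.0 in those of the mouse. The groups did not overlap, but the highest ferret library was close to the lowest mouse library. The log2 difference was -0.20 (95% interval -0.39 to -0.01, limma adjusted p = 0.046), which lies 0.15 above the median of all genes. An adjusted p under 0.05 by limma was reached by 88.6% of the tested genes, and by all 7 tested prostaglandin genes. When each library was left out in turn, the log2 difference ran from -0.31 to -0.09 and its adjusted p by limma from 0.0293 to 0.394, and the adjusted p was above 0.05 without either ferret library or without mouse replicate 2. With the libraries rescaled to equal sums it was 0.17, so its direction depends on the scaling. The mouse gene spans bases 32395896 to 32405772 of chromosome 2 on the plus strand, with 7 exonic regions.

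Read within a library, Ptges stood above Ptges2 in the mouse and below it in the ferret. Of the FPKM of Ptges and Ptges2 together, Ptges held 70.5% and 68.5% in mouse astrocytes and 25.7% and 23.8% in ferret astrocytes. The log2 ratio of Ptges2 to Ptges was 1.53 and 1.68 in the ferret duplicates against -1.26 and -1.12 in those of the mouse. Both ferret ratios were above 0 and both mouse ratios below 0, with a difference of 2.80 and a spread between duplicates of 0.0994 and 0.0965 (SD, n = 2). The exact two-sided permutation p was 0.333, the smallest possible here. These ratios are free of the scaling between libraries, though they still rest on the gene models of each species.

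**Figure D2:**
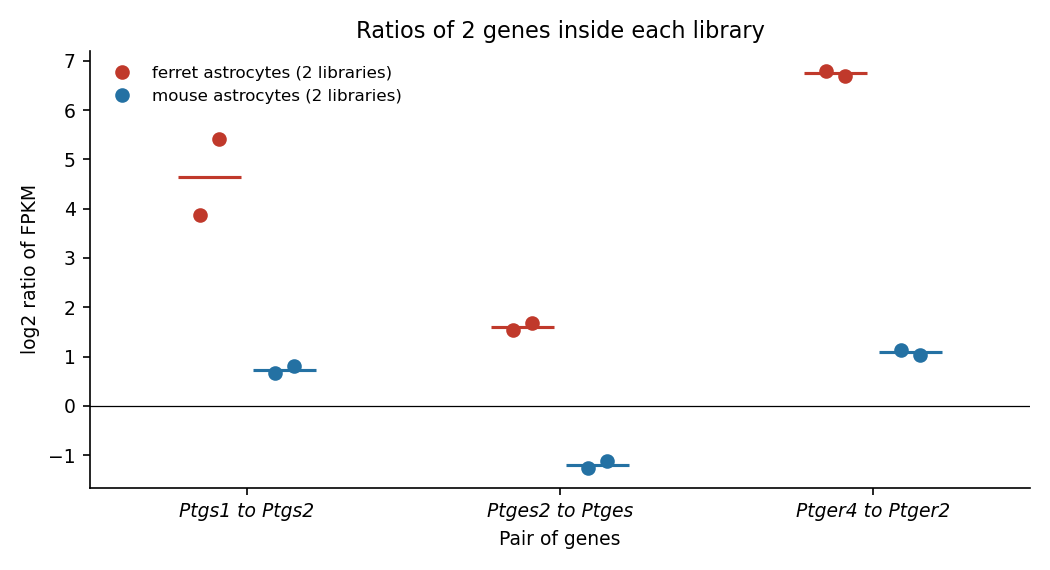
log2 ratio of the FPKM of a pair of genes inside each library, for Ptgs1 to Ptgs2, Ptges2 to Ptges and Ptger4 to Ptger2, with 2 ferret libraries (red) and 2 mouse libraries (blue) and species means as short lines. The Ptges2 to Ptges ratio is above 0 in both ferret libraries and below 0 in both mouse libraries, and the ferret Ptgs1 to Ptgs2 ratios, 3.87 and 5.41, lie furthest apart among duplicates.

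Ptgis encodes prostacyclin synthase, a cytochrome P450 enzyme known from vascular and fibroblast-like cells. It had 2.46 and 2.5 FPKM in the ferret duplicates against 14.4 and 13.7 in those of the mouse. Both ferret libraries were below both mouse libraries, and the mouse mean was 5.66 times the ferret mean. The species difference in log2 was -2.11 (standard error 0.0718, limma adjusted p = 2.07e-09). Mouse Ptgis lies on the minus strand of chromosome 2 between 167191805 and 167240604, with 11 exonic regions. The overlapping gene 1110018N20Rik on the other strand had 0.806 and 0.659 FPKM.

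All 12 tested markers of meningeal fibroblasts were called lower in ferret astrocytes as well, beside 30.1% of all tested genes. Several of the 12 passed the limit for low values only through the mouse mean. The sums over 13 measured genes were 130.5 and 114.6 FPKM in ferret and 1914.6 and 1902.6 in mouse astrocytes. The highest of the list in the mouse was Serpinf1, with 629.8 and 653.2 FPKM, against 0.0937 and 0.128 FPKM in the ferret. Col1a2 gave most of the ferret sums, with 84.6 and 74.6 FPKM, against 214.5 and 204.9 FPKM in the mouse. Mgp of that list is listed at 0 in both ferret libraries, and Slc6a13 in both mouse libraries. Of 9 vascular markers measured in both species, 4 were tested, of which 3 were called lower and Kcnj8 higher. The vascular sums were 16.9 and 16.2 FPKM in ferret and 50.3 and 48.9 in mouse astrocytes, and Cdh5, Tek, Rgs5 and Pecam1 are listed at 0 in both ferret libraries. In the mouse Cdh5 had 22.0 and 22.5 FPKM and Tek 1.34 in both libraries. Mouse Rgs5 had 0.601 and 0.576 FPKM, and Pecam1 only 0.0407 and 0.0312. Cldn5 is listed at 0 in both mouse libraries and in ferret replicate 2, and had 0.0583 FPKM in ferret replicate 1. The part of these cell types in the level of Ptgis was not tested.

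Ptgds and Ptges3 were measured here in mouse astrocytes only. Ptges3 encodes p23, a co-chaperone of HSP90 that also has PGE synthase activity, and was the highest of the 10 genes in the mouse, at 62.2 and 60.2 FPKM. That is 3.82 and 3.16 times the level of Ptges2 in the same libraries. The mouse values also hold a pseudogene, Ptges3-ps, at 6.44 ± 0.844 FPKM (SD, n = 2), and the division of reads between the near-identical copies is uncertain. Mouse Ptges3 lies on the plus strand of chromosome 10 between 128058954 and 128077272, with 8 exonic regions.

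Ptgds encodes the lipocalin-type prostaglandin D synthase, an abundant brain protein made by the leptomeninges, choroid plexus and oligodendrocytes. It had 4.73 FPKM in mouse replicate 1 and 9.65 in mouse replicate 2. The duplicates differed 2.04-fold, or by 0.89 on the log2(FPKM + 1) scale, while the median gene differed by 0.07. Of the 14464 mouse genes with a mean of 1 FPKM or more, 0.795% differed more between duplicates. A level for mouse cultures as such can hence not be read from the mean of 7.19 FPKM. The summed markers of the choroid plexus and ependyma were 45.7 and 47.6 FPKM in the same libraries, of which Foxj1 gave 41.8 and 44.0. Of the rest, Folr1 gave 3.8 and 3.55 FPKM, Ttr 0.0846 and 0.0942, Kl 0.00597 and 0, and Clic6 0.0164 and 0.0137. The summed markers of meningeal fibroblasts were 1914.6 and 1902.6 FPKM. The oligodendrocyte lineage sum, which leaves out Olig1, was 69.1 FPKM in both, and within it Mbp was at 2.95 and 1.78 FPKM. The part of these cell types in the level of Ptgds was not tested. Mouse Ptgds spans bases 25466709 to 25470046 of chromosome 2 on the minus strand, with 7 exonic regions.

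In mouse astrocytes the levels fell in the order Ptges3, Ptges, Ptges2, Ptgfrn, Ptgis, Ptgs1, Ptgs2, Ptgds, Ptger4 and Ptger2. Of the neighbours in this order, Ptges2 and Ptgfrn overlapped between duplicates, as did Ptgs2 and Ptgds. In ferret astrocytes the order was Ptges2, Ptgfrn, Ptger4, Ptges, Ptgis, Ptgs1, Ptger2 and Ptgs2, and no neighbours overlapped. On the mouse genome, Ptgs1, Ptgds, Ptges, Ptges2 and Ptgis are 5 of the 10 genes and lie on chromosome 2. The others are on 5 other chromosomes.

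Of the 2 receptor genes for PGE2, Ptger4 was higher in ferret astrocytes and Ptger2 was too low for the main comparison. Ptger4 encodes EP4, a receptor coupled to cyclic AMP. It had 6.95 and 7.59 FPKM in the ferret duplicates against 0.475 and 0.359 in those of the mouse. The ferret values were both above the mouse values, and the ferret mean was 17.4 times the mouse mean. Ptger4 differed by 2.55 on the log2 scale (standard error 0.0835, limma adjusted p = 1.63e-09), or 2.89 above the median of all genes. Its percentile among the shared genes was 58.3 and 60.0 in the ferret and 24.1 and 22.6 in the mouse. The log2 difference ran from 2.49 to 3.84 over the 11 alternative settings, and the gene was called in each.

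Mouse Ptger4 lies on the minus strand of chromosome 15 between 5206661 and 5244187, with 5 exonic regions. On the plus strand it overlaps Ttc33, and the 2 genes share 82 of the 6648 exonic bases of Ptger4 in the annotation. Ttc33 had 13.9 and 15.8 FPKM in the mouse and 5.84 and 4.80 in the ferret libraries, and its part in the values of Ptger4 was not tested. The library kit marks strand, but whether reads were counted by strand is not given in the sources used here.

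Ptger2, the gene of the EP2 receptor, was low in both species, at 0.0622 and 0.0730 FPKM in the ferret duplicates against 0.215 and 0.175 in those of the mouse. Both ferret libraries were below both mouse libraries. In the fit on all 13373 shared symbols the median log2 difference was -0.11, and 75.2% of all symbols had a limma adjusted p under 0.05. Ptger2 differed by -0.16 in that fit (95% interval -0.23 to -0.10, limma adjusted p = 0.00656), or -0.05 relative to that median. It was not called, and without ferret replicate 1 the limma adjusted p was 0.0552, in a range from 0.00584 over all alternatives. The mouse gene lies on the plus strand of chromosome 14 between 44988195 and 45003820, with 2 exonic regions.

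Within a library Ptger4 stood 111.8 and 104.1 times above Ptger2 in the ferret and 2.21 and 2.05 times in the mouse. Ptger4 was thus the higher PGE2 receptor gene in all 4 libraries. The log2 ratio differed between the species by 5.66, with a spread between duplicates of 0.0729 and 0.0756 (SD, n = 2, exact two-sided permutation p = 0.333, the smallest possible here). The Ptger2 values are near the lower end, and with 1 FPKM added to each value the difference in the log2 ratio was 2.71.

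Ptgfrn encodes an immunoglobulin superfamily protein that binds tetraspanins and was named for its inhibition of PGF2α binding to the receptor of that prostaglandin. It had 12.7 and 13.6 FPKM in the ferret duplicates against 16.6 and 16.1 in those of the mouse. Both ferret libraries were below both mouse libraries by a small margin. Its log2 difference of -0.29 (95% interval -0.44 to -0.14, limma adjusted p = 0.00205) was not called, and is a value 0.06 above the median of all genes. With the libraries rescaled to equal sums it was 0.07 (limma adjusted p = 0.256, in a range of 0.00155 to 0.258 over all alternatives), so its direction depends on the scaling. The mouse gene spans bases 101040232 to 101110278 of chromosome 3 on the minus strand, with 10 exonic regions.

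**Figure D3:**
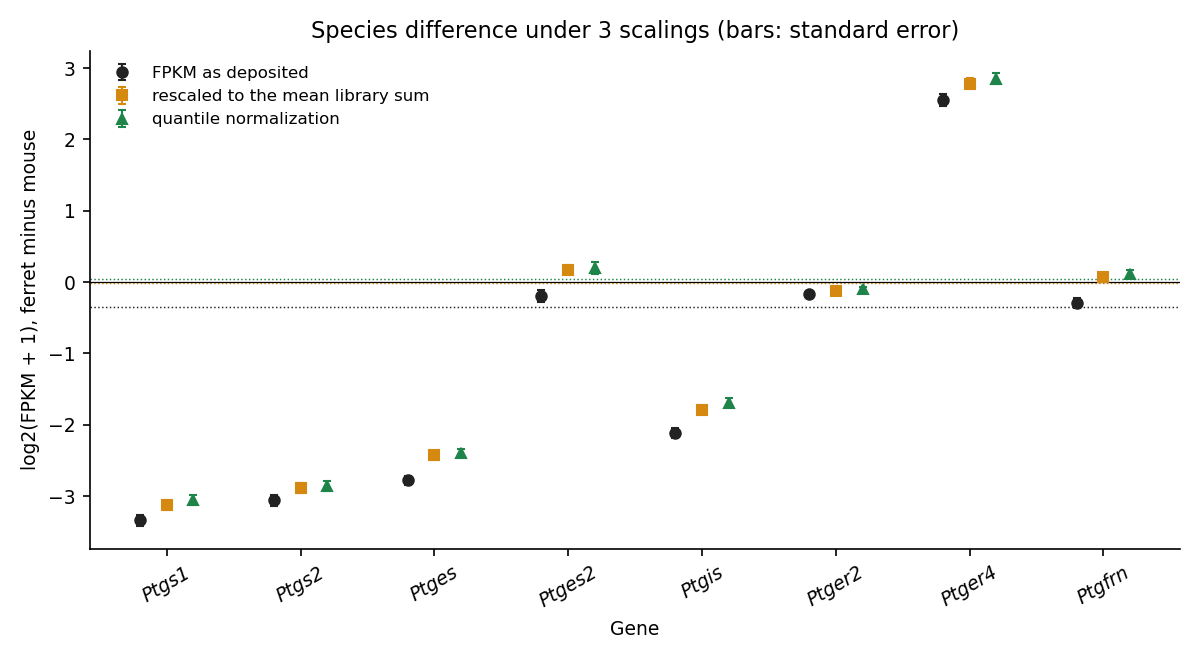
Ferret minus mouse difference in log2(FPKM + 1) for the 8 prostaglandin genes with values in both species, with FPKM as deposited (black), after rescaling to the mean library sum (orange) and after quantile normalization (green). Bars are standard errors, dotted lines the median of all tested genes under each scaling. Ptgs1, Ptgs2, Ptges and Ptgis stay below -1 and Ptger4 above 2 in all 3 scalings, while Ptges2 and Ptgfrn change sign.

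Other genes of the pathway were taken from a list of 52 genes in 5 groups, of which 37 had a value in both species and 23 were tested. Of these 23, 16 were called lower and Ptgr1 alone was called higher in ferret astrocytes. Over all 10204 tested genes, 30.1% were called lower and 13.1% higher, and the counts by group below stand beside the same shares. Many of the 23 passed the limit for low values only through the mouse mean. Without that limit, the 37 genes had a median of -0.60 in log2, against -0.11 for all shared symbols. After each library was brought to the same sum, the mean of all 4, 12 genes were called lower and 3 higher, namely Ptgr1, Ptgfr and Faah, the gene of a hydrolase of fatty acid amides. At that scaling 2215 of all 10204 genes were called lower and 1954 higher.

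Genes that release arachidonic acid were lower in ferret astrocytes in 5 of 7 cases tested, and 2 were not called. Pla2g4a, the cytosolic phospholipase A2 that feeds the cyclooxygenases, had 0.0384 and 0.0901 FPKM in the ferret duplicates against 13.0 and 12.6 in those of the mouse (log2 difference -3.70, limma adjusted p = 9.91e-11). Both ferret libraries were again far below both mouse libraries. The secreted phospholipase gene Pla2g5 is listed at 0 in both ferret libraries and had 13.2 and 13.7 FPKM in the mouse. Pla2g12a stood at 0.801 and 0.981 FPKM in the ferret and at 13.5 and 13.7 in the mouse libraries. Mgll, which encodes monoacylglycerol lipase, a source of brain arachidonic acid, was chosen after its values were seen and had 7.22 and 6.53 FPKM in the ferret duplicates against 51.4 and 57.3 in those of the mouse (log2 difference -2.81, limma adjusted p = 4.84e-10).

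All 4 tested genes among the other prostanoid synthases were called lower in ferret astrocytes. Tbxas1, the gene of thromboxane synthase, had 0.0420 and 0.0493 FPKM in the ferret duplicates against 12.8 and 11.2 in those of the mouse. Hpgds, the gene of the hematopoietic prostaglandin D synthase, is listed at 0 in both ferret libraries and had 9.51 and 9.04 FPKM in the mouse. Both enzymes are known from microglia and macrophages. The part of these cells in the levels of Tbxas1 and Hpgds was not tested. Cbr1, a carbonyl reductase that reduces PGE2, stood at 4.77 and 4.39 FPKM in the ferret duplicates against 18.0 and 19.8 in those of the mouse.

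Of the other prostanoid receptor genes, 7 had values in both species and 5 of them were under the limit for low values in both. Ptgdr, a PGD2 receptor gene, was called lower, being listed at 0 for both ferret duplicates with 1.04 and 1.10 FPKM in the mouse. The call ended after that rescaling, where the log2 difference was -0.96, and over all alternatives it ran from -3.55 to -0.89. Ptgfr, the gene of the PGF2α receptor, had 4.66 and 3.72 FPKM in the ferret duplicates against 2.03 and 2.18 in those of the mouse. Its log2 difference of 0.73 (limma adjusted p = 5.15e-05) was under the limit of 1 for a call, and with the libraries rescaled it was 1.03.

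Among 5 tested genes of prostaglandin transport and breakdown, 3 were called lower and 1 higher. Ptgr1, which encodes prostaglandin reductase 1, had 38.9 and 43.6 FPKM in the ferret duplicates against 16.6 and 17.4 in those of the mouse (log2 difference 1.23, standard error 0.0712, limma adjusted p = 9.23e-08). The transporter gene Slco2a1 had 0.0327 and 0.0383 FPKM in the ferret duplicates against 1.62 and 1.24 in those of the mouse, and was called lower. Hpgd, the gene of the enzyme that starts the breakdown of PGE2, had 0.423 and 0.409 FPKM in the ferret duplicates against 2.05 and 1.71 in those of the mouse. Its log2 difference was -1.02, and both -0.94 without mouse replicate 1 and -0.84 after the rescaling end the call, in a range of -1.94 to -0.70 over all alternatives. Cbr3, a carbonyl reductase gene, had 7.05 and 8.81 FPKM in ferret astrocytes and 19.1 and 18.1 in mouse astrocytes. Its log2 difference was -1.14, and both -1.0 without ferret replicate 1 and -0.78 after that rescaling end the call, in a range of -1.28 to -0.73.

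In the lipoxygenase arm, which makes leukotrienes from the same arachidonic acid, 3 of 5 tested genes were called lower and 2 were not called. Alox5ap, the gene of the activating protein of this arm, had 0.514 and 0.402 FPKM in the ferret duplicates against 23.8 and 26.4 in those of the mouse (log2 difference -4.16, limma adjusted p = 8.21e-11). Ltc4s is listed at 0 in both ferret libraries and had 2.54 and 2.38 FPKM in the mouse. Alox5, the lipoxygenase gene that starts leukotriene synthesis, had a log2 difference of -1.08, and both -0.93 without mouse replicate 2 and -0.96 after the rescaling end the call, in a range of -2.83 to -0.87. Alox15 is listed at 0 in all 4 libraries. Alox5ap, Alox5 and Ltc4s are genes of myeloid cells, and the microglial sums given above moved with them. The part of microglia in these levels was not tested.

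**Figure D4:**
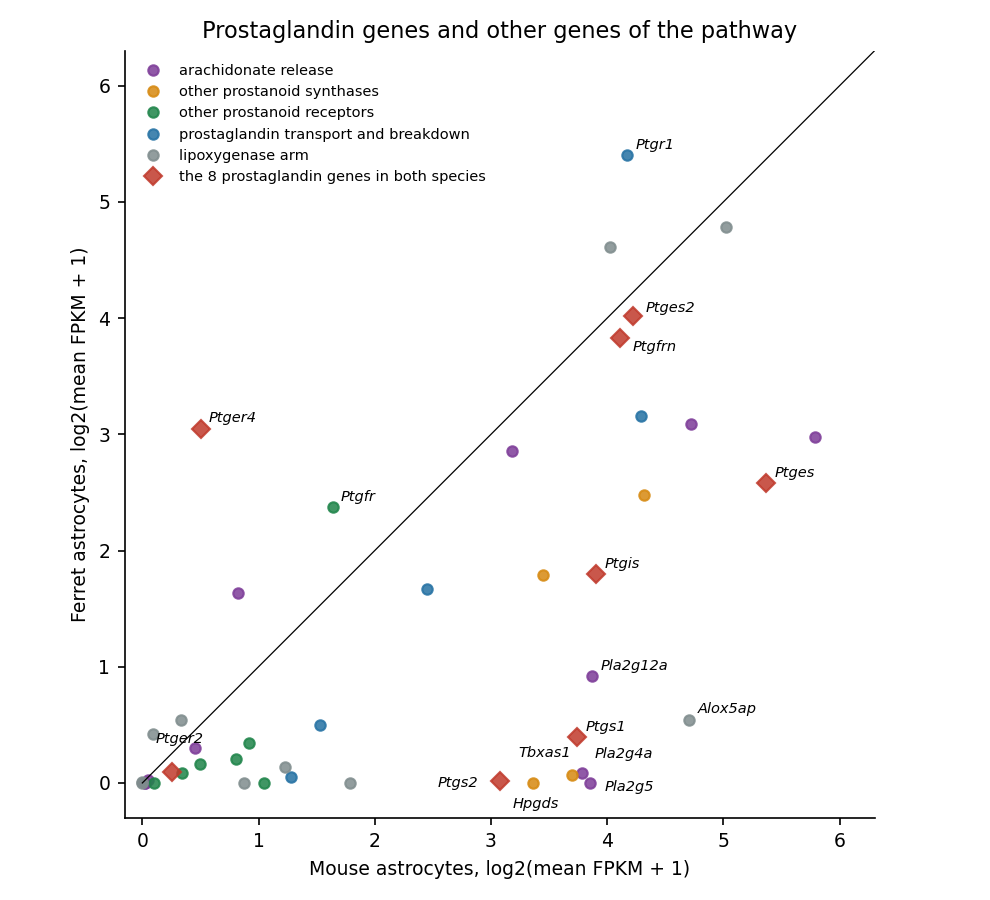
Mean level in mouse astrocytes (horizontal axis) and in ferret astrocytes (vertical axis), both as log2(mean FPKM + 1), for the 37 other pathway genes with values in both species (circles, colored by group) and the 8 prostaglandin genes (red diamonds). The line marks equal levels. Of the genes named in the plot, Ptger4, Ptgr1 and Ptgfr lie above it and the others below it.

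Ptgs1 and Ptger4 differed most in each direction on the log2(FPKM + 1) scale as deposited, although with a pseudocount of 0.1 Ptgs2 differed more than Ptgs1 (-6.05 against -4.90), as it did after rescaling to a sum of 1000000 (-4.58 against -4.14). For Ptgs1 and Ptger4, the genes with the most similar values were found by the Euclidean distance over the 4 log2(FPKM + 1) values. Nearest to Ptgs1 were Dtx1 (distance 0.137), Pear1 (0.151), Psd2 (0.194), Cd14 (0.204) and Igf1 (0.218). Nearest to Ptger4 were Il17rd (0.139), Dnajc6 (0.216), St6galnac5 (0.216), Cplane2 (0.25) and Dipk1c (0.258). With 4 libraries this measure reads the levels in both species and little else. Nothing was drawn from it about function.

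The remaining marker lists gave the following values, beside 13.1% of all tested genes called higher and 30.1% called lower. Of 8 tested oligodendrocyte lineage markers 3 were called higher in ferret astrocytes, with sums over 10 genes of 169.6 and 188.5 FPKM in the ferret and 69.1 FPKM in each mouse library. Of 4 tested neuronal markers 3 were called higher, with sums over 7 genes of 28.2 and 28.1 FPKM in the ferret and 32.4 and 33.6 in the mouse. Map2, which was not called, gave 18.8 and 19.0 FPKM of the ferret sums and 30.4 and 31.3 FPKM of the mouse sums. Of 2 tested markers of the choroid plexus and ependyma Folr1 was called lower, being listed at 0 in both ferret libraries with 3.8 and 3.55 FPKM in the mouse, and the ferret sums over 5 genes were 22.2 and 21.3 FPKM. Of the 11 astrocyte markers, 7 were called lower and 1 higher, with sums from 4704.4 to 4897.6 FPKM in the ferret and from 10272.6 to 11053.7 FPKM in the mouse libraries. The oligodendrocyte lineage sum leaves out Olig1, which had no ferret value. The mouse level of Olig1 alone was above the mouse sum, so these sums do not compare the whole list. Of the 8 tested markers of that list, 6 had a positive and 2 a negative log2 difference. The neuronal sum was lower in the ferret despite the calls. The part of these cell types in the level of Ptger4 was not tested.

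**Figure D5:**
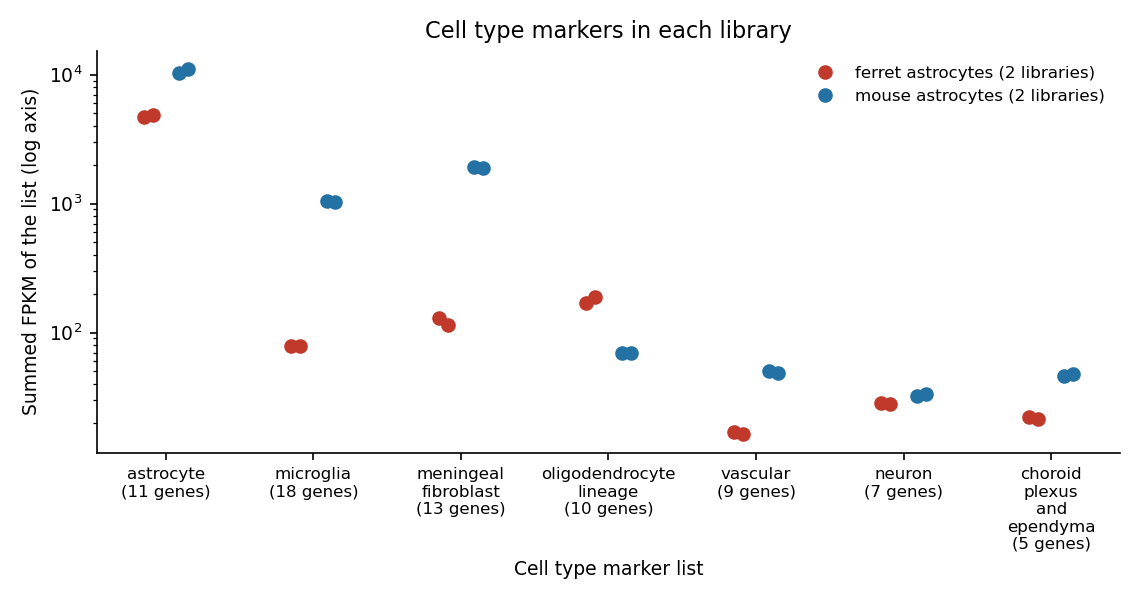
Summed FPKM (log axis) of 7 lists of cell type markers in each library, over the genes of each list with values in both species, with 2 ferret libraries (red) and 2 mouse libraries (blue). The ferret sums lie below the mouse sums for the microglial and meningeal fibroblast lists by the widest margins, and above them for the oligodendrocyte lineage list. The oligodendrocyte lineage sums leave out Olig1, which had no ferret value.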

How the data were processed

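RNA of 4 libraries was analysed, 2 from ferret and 2 from mouse astrocytes. The authors aligned the reads with STAR 2.7.0f to the Ensembl genome of each species and deposited 1 FPKM per gene and library from Cufflinks 2.2.1, normalized to mapped fragments and exon length. The authors also obtained read counts with featureCounts, which were not used here. Symbols were matched regardless of case, keeping the highest of several values of a symbol. The FPKM were set to log2(FPKM + 1) and compared with limma 3.58.1 (R 4.3.3), using its trended empirical Bayes variance and Benjamini-Hochberg adjustment, for genes with a mean of at least 1 FPKM in at least 1 species. The fit was tested on simulated data. Ratios within a library used no pseudocount. Mouse coordinates are from GENCODE M21 on GRCm38. The genes, lists and tests were chosen with earlier results of these data known. Named were all 10 genes, the 3 most different called genes per direction in each pathway group, the 5 nearest genes, and a choice of the markers at 0 or highest in a list. Mgll, Tyrobp, Ptgfr, Faah, Alox15, Ttc33, Gfap, Mbp, Slc1a2 and the related mouse loci were added after their values were seen. The values of 1 marker gene are not reported here.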

Additional observations from a re-analysis of the deposited data

How the results depend on the processing

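Under the 11 alternatives (no filter on low values, a pseudocount of 0.1, 3 scalings, a replicate block, summed values of a symbol and each of the 4 libraries left out), the number of prostaglandin genes called stayed at 1 higher and 4 lower. After rescaling to a sum of 1000000, rescaling to the mean library sum and quantile normalization, Ptges2 stood at 0.18, 0.17 and 0.20 and Ptgfrn at 0.08, 0.07 and 0.11 on the log2 scale, against -0.20 and -0.29 as deposited. The median of all genes moved from -0.35 to -0.01, -0.01 and 0.05 under these scalings, and the genes called higher from 1336 to 2197, 1954 and 2076, against 3069, 2536, 2215 and 2090 called lower. Other pathway genes called higher numbered 3 under each of these scalings and 2 with a pseudocount of 0.1, against 1. With 1 FPKM added, the log2 ratio of Ptgs1 to Ptgs2 differed between species by -0.29, that of Ptges2 to Ptges by 2.58 and that of Ptger4 to Ptger2 by 2.71, against 3.90, 2.80 and 5.66, because the addition weighs most on values under 1. The replicate numbers share only a number (correlation of deviations 0.00995), and with the replicate block 1342 genes were higher and 3072 lower. Read counts were not used here, so that the counting error of Ptgs2 in the ferret and of Ptger2 in both species is not given.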
